A study of Mus musculus with 48 samples.

Results

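The cells described here were picked from E18.5 mouse hypothalamus by their transcripts. A cell was taken when it held at least 1 UMI (unique molecular identifier, a tag that marks 1 captured transcript) of *Rax*, at least 1 UMI of any of *Frzb*, *Col23a1*, *Lhx2* or *Crym*, and no UMI of the pituitary hormone genes *Cga* and *Tshb*. The choice gave 172 of 14121 cells, 1.22% of the series: 40 of the 7186 cells from controls and 132 of the 6935 from *Eed-cKO* embryos. They are called *Rax*-selected cells below, because their wider marker content only partly matched that of tanycytes.

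Tanycytes are radial glia-like cells that line the floor and lower walls of the third ventricle, with a long process reaching into the hypothalamic parenchyma or to the median eminence. They keep the homeodomain factor *Rax* after birth, when most of the hypothalamus has lost it, and take part in thyroid hormone conversion, nutrient sensing and adult neurogenesis. In the embryo, *Rax* and *Lhx2* mark hypothalamic progenitors from which tanycytes derive.

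*Eed* encodes a core subunit of polycomb repressor complex 2 (PRC2), which places the repressive mark H3K27me3. Controls carried the homozygous floxed *Eed* allele alone (*Eed fl/fl*), and mutants carried it with 1 copy of *Sox1-Cre* (*Eed fl/fl; Sox1-Cre/+*), on a mixed B6:129S1 background. *Sox1-Cre* acts in neural cells, so vascular and immune cells of the same embryos were not targeted. Droplet-based 3′ single-cell libraries were made from 6 control embryos (2 female, 4 male; 22 libraries) and 9 *Eed-cKO* embryos (5 female, 4 male; 26 libraries). The library names point to 4 control and 6 mutant litters, and none held both genotypes, so genotypes were compared between litters only, never within 1. Each embryo counted as 1 replicate, its libraries being joined.

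Because each embryo gave few of these cells, the depth behind every value was small. The *Rax*-selected cells held 870713 UMIs in all, of 74487617 in the series, and the sum per control embryo ran from 16690 to 46663. Levels are given as CPM, the UMIs of a gene scaled to a common total per embryo. At these depths 1 UMI moved the CPM of an embryo widely, and a gene listed at 0 was not detected rather than absent. The median cell held 4046.5 UMIs in controls and 4411 in mutants, against 4735 and 4377 in all other cells. Only 7 of the 172 cells had a doublet score (Scrublet) in the highest 6% of their libraries' cells, and 5 carried a barcode also seen in another library.

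*Rax*-selected cells made up a larger share of the mutant libraries. They were 0.240% to 0.916% of the cells in the 6 control embryos (median 0.569%, mean 0.585% ± 0.249, SD) and 0.912% to 3.34% in the 9 *Eed-cKO* embryos (median 1.79%, mean 1.84% ± 0.887). Thus 8 of 9 mutant embryos lay above the highest control, and the smallest mutant share, 5 of 548 cells, lay just under it. The number of cells behind each share was 4 to 10 per control embryo and 2 to 33 per mutant embryo. These shares follow from the choice of cells and are given as a description. The ratio of the means was 3.14. With litters in place of embryos the means were 0.585% and 2.02%, and all 6 mutant litters lay above the highest of the 4 control litters. With at least 2 *Rax* UMIs per cell, the mean shares were 0.228% and 0.714%, a ratio of 3.12, and 4 of 9 mutant embryos lay above the control maximum. As a share of *Rax*-selected, ependymal-type and astrocyte-lineage cells together (defined below), the means were 10.4% and 13.8%, a ratio of 1.33, with 4 of 9 mutant embryos above the control maximum. The ependymal-type and astrocyte-lineage sets held cells with markers of other types, mostly from mutants (counts below). The part of such cells in this ratio was not tested.

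**Figure D1:**
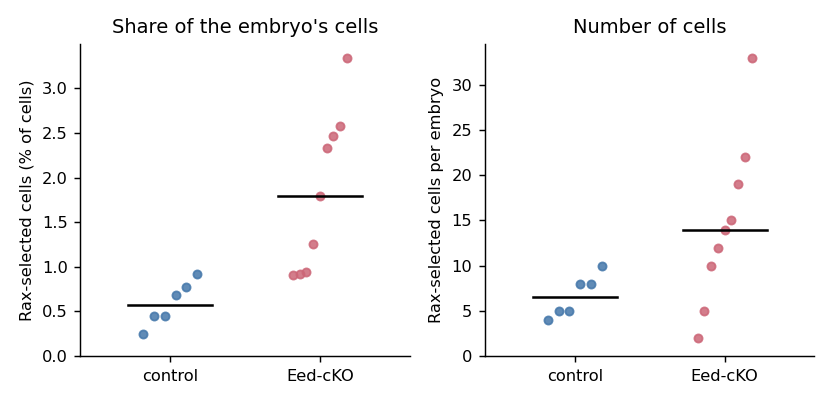
*Rax*-selected cells per embryo, as a percentage of all cells (left) and as a number of cells (right), for 6 control and 9 *Eed-cKO* embryos. Each dot is 1 embryo and each line the group median, 0.569% in controls and 1.79% in mutants; 8 of 9 mutant embryos lie above the highest control share.

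*Rax* transcripts themselves were sparse. A single *Rax* UMI was found in 102 of the 172 cells (25 control, 77 mutant), and the highest count was 9 UMIs in mutants and 5 in controls. In all, 264 cells of the series held *Rax*. Of these, 76 lacked a second gene (21 control, 55 mutant) and 16, all from mutants, held *Cga* or *Tshb*. The 34 cells just inside the selection (1 *Rax* UMI and 1 UMI of a second gene) held a median of 3831.5 UMIs, and the 76 just outside held 3712. Background from free RNA can bear on such low counts, but its part here was not tested. Among neuron-type cells, *Rax* was found in 0.223% of 4493 control and 1.36% of 4033 mutant cells, at median depths of 5859 and 5289 UMIs. Of those cells with *Rax*, 5 of 10 in controls and 23 of 55 in mutants were themselves *Rax*-selected. Among cells with vascular, meningeal or microglial markers *Rax* was found in none of 336 in controls and in 3.29% of 638 in mutants. Of the latter cells with *Rax*, 14 of 21 were themselves *Rax*-selected.

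The second genes were shared out differently in the genotypes. *Lhx2*, a LIM homeodomain factor needed for tanycyte development, was detected in 67.5% of control and 77.3% of mutant cells, and was the only second gene in 20% and 37.1%. *Frzb*, a secreted Wnt antagonist, was found in 42.5% and 16.7%, the collagen gene *Col23a1* in 62.5% and 36.4%, and *Crym*, a thyroid hormone-binding protein gene of ventral tanycytes, in 45% and 41.7%. All 4 were present together in 6 of 40 control and 11 of 132 mutant cells. In sums per embryo (6 controls and 8 mutants, leaving out 1 mutant embryo with 2 such cells) the median level of *Rax* was 369 CPM in controls (157 to 431) and 388 CPM in mutants (294 to 530), *Lhx2* 212 and 354 CPM, *Col23a1* 506 and 269 CPM, *Frzb* 195 and 76.6 CPM, and *Crym* 288 and 827 CPM. The embryos overlapped for each of these 5 genes, which chose the cells and were not tested.

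Were these cells tanycytes by their other transcripts? Radial glia genes made up a median of 44.5% of the radial glia and neuron marker UMIs of a *Rax*-selected cell, against 3.14% in all other cells, 78.5% in ependymal-type and 77.1% in astrocyte-lineage cells. Radial glia UMIs outnumbered neuron UMIs in 75 of the 172 cells (19 of 40 control, 56 of 132 mutant), and 18 cells had under 10% radial glia UMIs. *Vim*, an intermediate filament gene of radial glia and tanycytes, was detected in 38 of 40 control and 117 of 132 mutant cells, against 22.5% and 36.2% of other cells. *Sox2*, the neural progenitor factor, was found in 35 and 103 cells. *Dio2*, the tanycyte deiodinase that makes active thyroid hormone, was found in 10 and 21 cells (other cells 0.294% and 0.882%), and *Gpr50*, an orphan receptor gene of tanycytes, in 19 and 36 (other cells 2.31% and 3.37%). Yet *Stmn2*, a neuronal microtubule regulator, was also present in 15 and 71 cells, and *Foxj1*, the master factor of motile cilia, in 17 and 45. The set therefore held tanycyte transcripts but was mixed, and no new name is given to it.

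**Figure D2:**
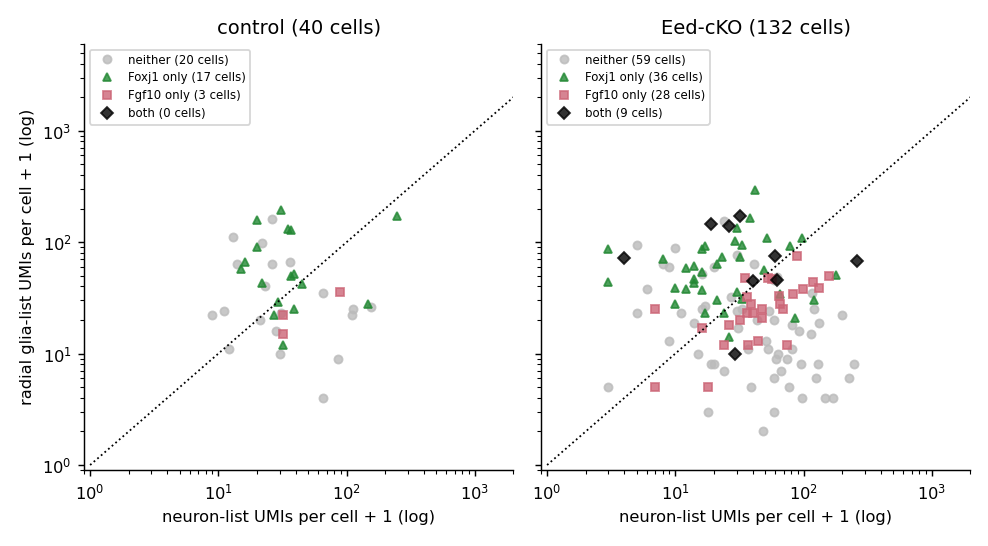
UMIs of the radial glia list (vertical) against UMIs of the neuron list (horizontal) in each *Rax*-selected cell, on log axes after adding 1, for control (left) and *Eed-cKO* (right) cells, coloured by whether the cell held *Foxj1*, *Fgf10*, both or neither. The dotted line marks equal numbers; 19 of 40 control and 56 of 132 mutant cells lie above it.

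Cells on the 2 sides of that line differed in what else they held. Among mutant cells with more radial glia than neuron UMIs, *Foxj1* was found in 35 of 56 and *Crym* in 38 of 56. Among the other mutant cells these were found in 10 of 76 and 17 of 76. The reverse held for *Col25a1*, a collagen gene on the tanycyte list, in 14 of 56 and 40 of 76 cells, for the voltage-gated sodium channel family gene *Scn7a* in 3 and 20, and for *Fgf10*, a growth factor of ventral tanycytes, in 9 and 28. *Lhx2* was found in 43 of 56 and 59 of 76. Control cells showed the same order for *Foxj1* (10 of 19 and 7 of 21), *Crym* (12 of 19 and 6 of 21) and *Col25a1* (3 of 19 and 14 of 21). In mutants all 37 cells with *Fgf10* also held *Cdkn1c*, a cell cycle inhibitor gene found without it in 68 more, whereas 19 held the forebrain factor *Otx2* and 9 held *Foxj1*. All of these are descriptions of cells from the same embryos and were not tested.

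To ask how *Eed* loss altered the transcripts of these cells, their counts were summed per embryo and compared with edgeR's quasi-likelihood test over 6 control and 8 *Eed-cKO* embryos. The ninth mutant embryo had 2 such cells and was left out of this and all later tests. Of 9135 genes tested, 37 (0.405%) passed an adjusted p of 0.05, 28 of them higher (0.307%) and 9 lower (0.0985%) in the mutant, and 818 had an unadjusted p under 0.05. The median gene was 0.21 higher on the log2 scale, and when libraries were scaled by total UMIs alone (median 0.04) 0.317% of the genes were called, 14 higher and 15 lower. With that scaling the calls of *Ccnd2*, *Gldc*, *Lmna*, *Meis2*, *Rplp1*, *Tagln2*, *Npy*, *Sst*, *Crabp1*, *Acta2*, *Rplp0*, *Wbscr22*, *Rpl7a* and *Gnb2l1* were lost. Single control embryos carried weight: without F4690_E3 12 genes were called, without F4650_E1 20 and without F4530_E2 22.

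Growth factor and forebrain patterning genes were among the 28 rises. *Fgf10* (GRCm38/mm10 chr13:118669791-118792115, plus strand) had 3 UMIs in controls and 255 in mutants. On the TMM-scaled CPM used for all per-embryo levels of this comparison, controls ran from 0 to 71.0 (median 0) and mutants from 0 to 672 (median 167), and 5 of 8 mutant embryos lay above every control. The fitted difference was 4.15 ± 0.61 (log2, SE; adjusted p = 8.50e-07), and the pooled ratio was 26.1 with a 95% counting interval of 8.83 to 127. It was found in 3 of 40 control and 37 of 132 mutant cells, against 2.32% and 3.69% of neuron-type cells outside the selection. *Otx2*, a homeodomain factor of the forebrain and midbrain (chr14:48657677-48673819, minus strand), had no UMI in any control embryo, as was so for 1.2% of the genes tested, and 56.1 to 218 CPM in mutants (median 123), so that the groups did not overlap. Counting the control group at a floor of 3 UMIs, it was at least 7.67-fold higher (adjusted p = 5.33e-04), from 43 cells of 8 embryos. *Otx2* overlaps the exons of *Otx2os1*, and whether counting used strand is not given in the sources used here. *Fezf1*, a zinc finger factor of the anterior neural plate and ventromedial hypothalamus (chr6:23245044-23248362), rose from 0 UMIs to a median of 93.0 CPM (0 to 309) in 24 mutant cells, at least 6.14-fold (adjusted p = 0.00437).

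Regulators of the cell cycle also changed. *Cdkn1c*, which encodes the inhibitor p57 and is imprinted (chr7:143458339-143461050), ran from 144 to 2176 CPM in controls (median 412) and from 1033 to 3670 in mutants (median 1733), a difference of 1.55 ± 0.28 (adjusted p = 4.57e-04). Only 3 of 8 mutant embryos lay above the highest control, F4520_E2, which stood apart from the other controls at 2176. *Cdkn1a*, the p21 inhibitor gene (chr17:29090976-29100727), had 2 UMIs in controls and 78 in mutants, with 54.4 to 282 CPM in the latter. The pooled ratio was 12.0 with a counting interval of 3.20 to 101 (adjusted p = 0.00942). Together with these inhibitors, the G1 cyclin genes *Ccnd1* (median 342 and 783 CPM, 1.29 ± 0.29, adjusted p = 0.0106) and *Ccnd2* (304 and 780 CPM, 1.23 ± 0.31, adjusted p = 0.0298) were higher, as was *Bmi1*, a subunit gene of polycomb complex 1 (56.0 and 223 CPM, 1.94 ± 0.45, adjusted p = 0.0153). Of the 7 inhibitor genes tested, the other 5 did not pass, and *Cdkn2a*, a much-studied PRC2 target, had 0 UMIs in controls and 15 in mutants (adjusted p = 0.269). None of the 10 cycling genes, such as *Mki67* and *Top2a*, passed (median difference −0.01 against 0.21 for all genes). *Mki67* was detected in 3 of 40 control and 15 of 132 mutant cells.

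**Figure D3:**
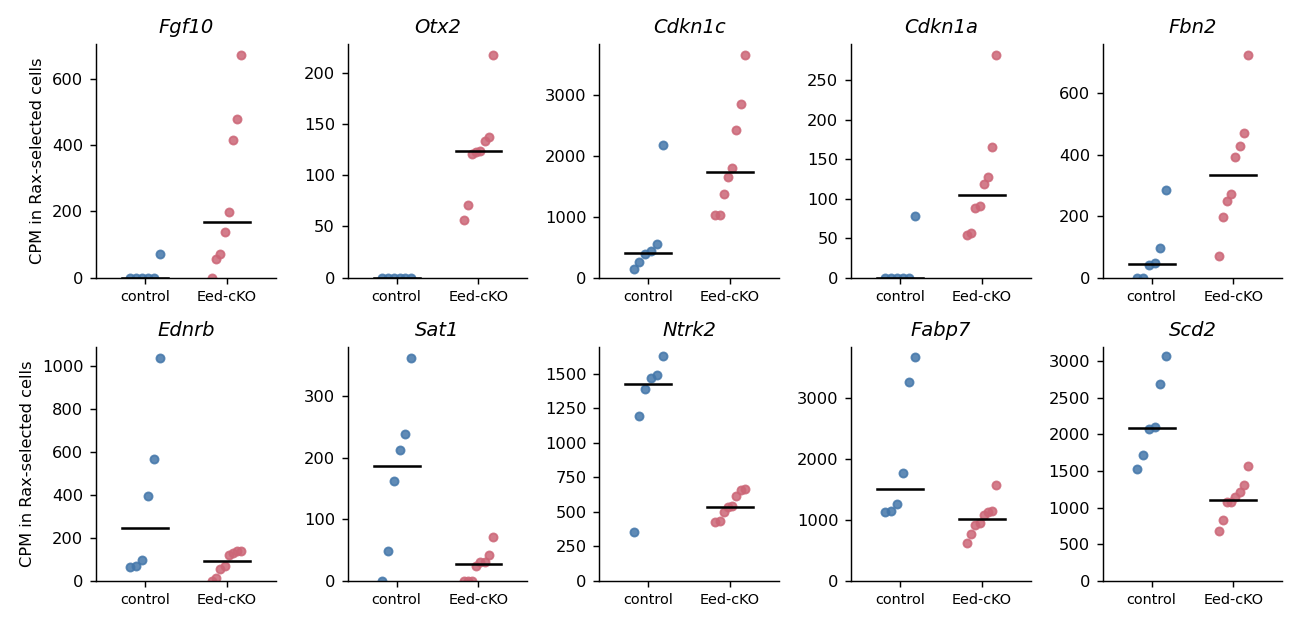
TMM-scaled CPM of 10 genes that passed the test, summed over the *Rax*-selected cells of each of 6 control and 8 *Eed-cKO* embryos. Dots are embryos and lines medians; *Otx2* is at 0 in all controls and 56.1 to 218 in mutants, whereas *Scd2* ran from 1531 to 3067 in controls and from 684 to 1572 in mutants.

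Among other rises, the groups did not overlap for *Tagln2*, an actin-binding protein gene (control maximum 119 CPM, mutant minimum 147), *Hddc3* (39.3 and 45.4), *Cox6b2*, a testis-type subunit of cytochrome c oxidase (22.6 and 56.1), and *Rplp1*, a ribosomal stalk protein gene (1603 and 2089). In all, 20 of the 9135 genes were higher in every mutant than in every control embryo (0.219%) and 3 were lower in every one (0.0328%). *Fbn2*, an extracellular microfibril gene, went from a median of 43.8 CPM (0 to 284) to 333 CPM (70.8 to 724; 2.12 ± 0.41, adjusted p = 6.84e-04). The uncharacterised transcript *1500015O10Rik* went from 38.7 CPM (0 to 118) to 256 (54.4 to 414; 2.43 ± 0.46, adjusted p = 5.52e-04). The imprinted gene *Mest* went from 1119 CPM (471 to 3311) to 3181 (1415 to 5453; 1.14 ± 0.25, adjusted p = 0.00935). *Meis2*, a homeodomain cofactor, went from a median of 0 (maximum 157) to 152 CPM (70.8 to 232; 2.44 ± 0.60, adjusted p = 0.0260).

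Some calls rested on few cells. The neuropeptide genes *Npy* and *Sst* had no UMI in controls, and in mutants each was found in 9 of 132 cells, 1 of which held both. Both passed the test (adjusted p = 0.0334 and 0.0434), but embryo F0588_E7 held 47 of the 54 *Npy* UMIs and embryo F0571_E3 held 27 of the 37 *Sst* UMIs. The bounds of at least 5.52-fold and at least 3.79-fold fell to 0.931 and 1.09 without those embryos, so no increase beyond the floor was left for *Npy* and next to none for *Sst*. The smooth muscle actin gene *Acta2* had 54 UMIs in 3 mutant cells, 49 of them in embryo F0652_E8, and its bound went from 5.52 to 0.590 without it. *Igf2*, an imprinted growth factor gene high in meninges, had 0 and 68 UMIs, the latter in 27 cells, and was at least 6.96-fold higher (adjusted p = 8.99e-04), or at least 6.38-fold without F0588_E7, which held the most UMIs of it.

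Markers of other cell types moved with genotype. At least 3 markers of a vascular, meningeal or microglial list were found in 14 mutant cells and in no control cell. The summed level of the 6 leptomeningeal fibroblast genes (plain CPM) was 0 to 290 in control (median 45.3) and 283 to 635 in the 8 mutant embryos tested (median 381). Its medians were higher in other mutant cells too, at 72.0 and 230 in neuron-type cells and 429 and 1374 in all other cells. In the *Rax*-selected cells the corresponding medians were 0 and 87.2 for pericyte or smooth muscle genes, 0 and 35.0 for endothelial genes (maxima 119.8 and 67.1), 0 and 126 for choroid plexus genes, and 0 and 0 for microglia genes. *Otx2* is itself on the choroid plexus list and made up 75 of its 88 UMIs in these mutant embryos, and no *Rax*-selected cell held 3 or more of those markers. Without those 14 cells, 39 of 8773 genes were called (0.445%), of which 31 were higher and 8 lower (0.0912%). *Galnt7*, *Gldc*, *Fbln5* and *Gnb2l1* lost their calls in that set, chosen after the data were seen, and *Igf2* kept an adjusted p of 0.0321.

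Genes of glial function and of matrix and lipid metabolism were among the 9 that fell, a grouping made after their values were seen. *Ednrb*, the endothelin receptor gene of radial glia and astrocytes (chr14:103814625-103844402), ran from 64.6 to 1033 CPM in controls (median 244) and from 0 to 138 in mutants (median 94.2), a difference of −2.03 ± 0.38 (adjusted p = 5.33e-04). *Ntrk2*, the BDNF receptor gene (chr13:58806569-59133970), went from 1429 CPM (353 to 1630) to 538 (424 to 662; −1.20 ± 0.25, adjusted p = 0.00278). *Fabp7*, the brain lipid-binding protein of radial glia (chr10:57784881-57788450), went from 1513 CPM (1131 to 3681) to 1010 (627 to 1577; −1.03 ± 0.24, adjusted p = 0.0153), and 5 of 8 mutant embryos lay below every control. *Scd2*, a fatty acid desaturase gene, went from 2086 CPM to 1108 (−0.996 ± 0.23, adjusted p = 0.0153), with 7 of 8 mutant embryos below every control. *Gdf10*, a BMP family ligand, went from 99.4 CPM (0 to 236) to 0 (maximum 30.3; −3.62 ± 0.74, adjusted p = 0.00213). The polyamine acetyltransferase gene *Sat1* (−2.55 ± 0.50, adjusted p = 8.99e-04), the atypical kinase gene *Mapk4* (−2.77 ± 0.67, adjusted p = 0.0190) and the matrix genes *Nid1* (−2.16 ± 0.49, adjusted p = 0.00943) and *Fbln5* (−2.67 ± 0.69, adjusted p = 0.0390) also fell. *Nid1* had 43 UMIs in 3 control cells, and in cells with more radial glia than neuron UMIs its difference was 1.53.

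Read by gene list, 2 of 16 radial glia genes (*Fabp7* and *Ednrb*) fell and none rose, where 0.0985% of all genes tested fell and 0.307% rose. The list's median was −0.42 against 0.21 for all genes, and 13 of its 16 members were negative. The summed radial glia level was 7106 to 16812 CPM in controls and 5787 to 14152 in the 8 mutants tested, with medians of 12330 and 7932. Of the 18 tested tanycyte genes outside the selection, *Fgf10* rose, none fell, and the median was −0.14. Among those that did not pass were *Vim* (0.20, adjusted p = 0.876), *Gpr50* (−0.62, adjusted p = 0.654), *Dio2* (−0.15), *Col25a1* (0.29) and *Scn7a* (0.15). The versican gene *Vcan* was −1.12 ± 0.31 (adjusted p = 0.0747) and fell at an adjusted p of 0.0291 when libraries were scaled by total UMIs alone. *Hes1*, a Notch effector, was 0.87 ± 0.26 (adjusted p = 0.133).

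The 75 cells with more radial glia than neuron UMIs were also compared alone. Over 13 embryos with at least 3 such cells, 24 of 5833 genes were called (0.411%), 21 higher (0.36%) and 3 lower (0.0514%), around a median of 0.24. *Cdkn1c* (1.99, adjusted p = 1.68e-04), *Cdkn1a* (adjusted p = 0.00194), *Ccnd1* (1.70, adjusted p = 0.00194), *Ccnd2* (2.01, adjusted p = 0.00100), *Bmi1* (3.47, adjusted p = 0.00231), *Fbn2* (adjusted p = 0.0442), *Mest* (1.29, adjusted p = 0.0109) and *1500015O10Rik* (4.02, adjusted p = 0.00231) rose there too, and *Ednrb* (−1.61, adjusted p = 0.0271) fell. *Fgf10* (adjusted p = 0.0638), *Otx2* (adjusted p = 0.0685), *Fezf1* (adjusted p = 0.280), *Ntrk2* (−1.01, adjusted p = 0.111), *Scd2* (−0.97, adjusted p = 0.0927) and *Fabp7* (−0.91, adjusted p = 0.116) did not pass. The radial glia list, whose UMIs chose these cells, had a median of −0.01.

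In the hypothalamic and anterior patterning list 2 of 12 tested genes rose (*Otx2*, *Fezf1*; median 0.69). For this and the lists that follow, the shares of all genes tested were 0.307% higher and 0.0985% lower. *Nkx2-1* and *Six3*, which specify the ventral hypothalamus and anterior forebrain, did not pass (0.77 and −0.65, adjusted p = 0.380 and 0.331). *Meis2* was the only one of 8 posterior patterning genes called. Of 34 Hox genes, which mark hindbrain and spinal levels, none reached the minimum count. They had no UMI in control *Rax*-selected cells and 123 in mutant ones, in 32 of 130 cells, with 28.2 to 351 CPM in the 8 mutant embryos tested. No member passed among 14 Notch, 17 Wnt, 6 hedgehog, 14 BMP and TGF-beta, 15 neuron, 10 ependymal and 9 astrocyte genes. The 4 thyroid hormone genes tested were all negative, with a median of −0.85 and none called. On the list of cytosolic ribosomal protein genes named *Rpl* and *Rps*, 69 of 73 were positive (median 0.55), with *Rpl7a* called. The called stalk protein genes *Rplp0* and *Rplp1* are not on that list. With scaling by total UMIs alone 66 were positive and none was called. None of 9 PRC2 subunit genes passed. *Eed* itself, whose deleted part a 3′ tag does not read, had 11 UMIs in controls and 15 in mutants (−1.09 ± 0.68, adjusted p = 0.674), too few to check the deletion in these cells.

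The genotype difference was compared with that of other cells as an interaction with all other cells of the same 14 embryos. Of 9135 genes, 62 (0.679%) differed, 15 with a higher (0.164%) and 47 with a lower difference (0.515%) in the *Rax*-selected cells, around a median of 0.23 for all genes. Scaling by total UMIs alone (median −0.04) gave 7 (0.0766%) and 82 (0.898%), 0.974% in all. Of 13 immediate early genes, whose transcription follows cell stimulation and tissue dissociation, 5 were lower (*Fos*, *Fosb*, *Egr1*, *Btg2*, *Nr4a1*) and none higher. In plain CPM, *Fos* had a median of 2344 in control (86.7 to 4082) and 1279 in mutant *Rax*-selected cells (492 to 2616), whereas in all other cells (6 control and 9 mutant embryos) it was 277 (218 to 375) and 601 (528 to 710). In the other cells every mutant embryo lay above every control, while in the *Rax*-selected cells the groups overlapped. The difference of differences was −1.88 ± 0.26 (log2, adjusted p = 3.57e-08), although within the *Rax*-selected cells *Fos* was −0.89 ± 0.26 and did not pass (adjusted p = 0.111).

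A like pattern was seen for the orphan receptor gene *Nr4a1* (−2.23 ± 0.31, adjusted p = 4.01e-08), with medians of 573 and 232 CPM in *Rax*-selected and 88.2 and 206 CPM in other cells. *Egr1* had 695 and 333 CPM against 121 and 248 (−1.95 ± 0.31, adjusted p = 4.44e-06), and *Fosb* 577 and 446 against 42.9 and 148 (−1.68 ± 0.29, adjusted p = 3.45e-05). *Cyr61*, a matricellular target of Yap, had 1074 and 1340 CPM against 46.7 and 176 (−1.53 ± 0.25, adjusted p = 1.33e-05), so it was higher in the mutant median of both sets but by less in the *Rax*-selected cells. Radial glia genes took the same direction, with 6 of 16 lower (*Sox9*, *Slc1a3*, *Fabp7*, *Hes1*, *Ednrb*, *Id3*) and a list median of −0.78. In cells with more radial glia than neuron UMIs, 13 of 5833 genes were called (0.223%), 5 higher (0.0857%) and 8 lower (0.137%). They included 5 of 11 immediate early genes (*Fos*, *Fosb*, *Egr1*, *Ier2*, *Nr4a1*) and, of the radial glia genes, *Id3* alone. In all *Rax*-selected cells *Vim*, which is on the tanycyte list, was −1.20 (adjusted p = 1.56e-04). All other cells are a mixture whose make-up differed by genotype (*Slc1a3* was detected in 8.83% of control and 19.2% of mutant cells among them). The part of that difference in the interaction was not tested.

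**Figure D4:**
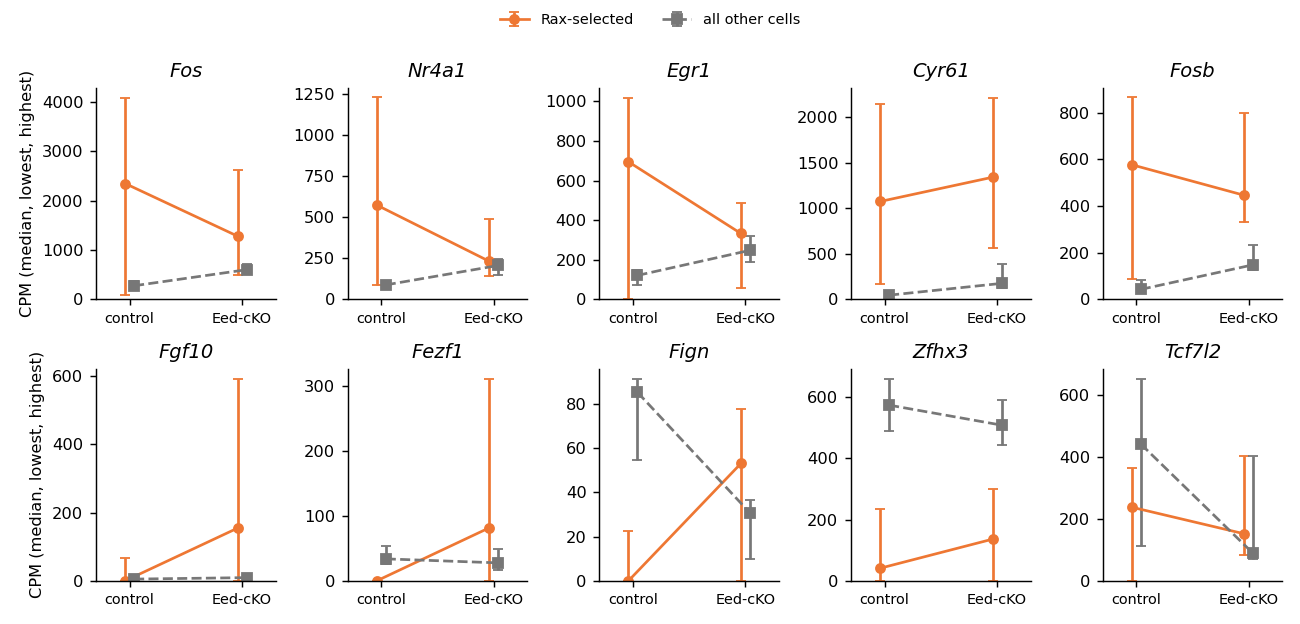
Plain CPM of 10 genes named from the interaction test, in control and *Eed-cKO* embryos, for *Rax*-selected cells (orange circles) and all other cells (grey squares, dashed). Points are medians and bars run from the lowest to the highest embryo; *Fos* goes from 2344 to 1279 in *Rax*-selected cells and from 277 to 601 in all other cells.

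Genes with a higher difference in the *Rax*-selected cells included *Fgf10* (3.36 ± 0.77, adjusted p = 0.00678), at medians of 0 and 155 CPM there and 5.06 and 9.37 in other cells. Without cells bearing 3 or more markers of other types its difference was 3.02 ± 0.84 (adjusted p = 0.0620), and 43 genes were called (0.490%). Without embryo F0589_E1 its adjusted p was 0.104. In astrocyte-lineage cells (defined below) *Fgf10* had medians of 0 CPM in controls and 18.2 in mutants, with maxima of 8.96 and 74.2. *Cdkn1c* (1.08, adjusted p = 0.0155), *Cdkn1a* (3.28, adjusted p = 0.0155) and *Otx2* (adjusted p = 0.0391) also passed against all other cells. Their interaction against the ependymal-type and astrocyte-lineage cells alone is not given here. *Fezf1* (adjusted p = 3.90e-04) was at 0 in all control *Rax*-selected sums and at a median of 81.6 CPM in the mutant, against 33.8 and 27.7 in other cells. For *Fign*, a microtubule-severing enzyme gene (4.73 ± 1.00, adjusted p = 0.00191), the medians were 0 and 53.0 CPM against 85.2 and 30.8. *Zfhx3*, a zinc finger homeobox factor (1.97 ± 0.48, adjusted p = 0.0136), had 41.1 and 136 against 574 and 509. *Tcf7l2*, the Wnt effector (1.45 ± 0.35, adjusted p = 0.0155), had 238 and 152 against 442 and 88.5, so here the other cells carried most of the difference. With the ependymal-type and astrocyte-lineage cells in place of all other cells, 21 genes were called. Of the 10 genes named from this test, *Nr4a1* alone kept its call there (−1.66, adjusted p = 0.0034), whereas *Fos* (−0.93, adjusted p = 0.228), *Fosb* (−0.90, adjusted p = 0.386), *Egr1* (−1.20, adjusted p = 0.152), *Cyr61* (−0.38, adjusted p = 0.831), *Fgf10* (1.43, adjusted p = 0.887), *Fezf1* (adjusted p = 0.485), *Fign* (3.82, adjusted p = 0.227), *Zfhx3* (1.56, adjusted p = 0.352) and *Tcf7l2* (0.53, adjusted p = 0.827) did not pass. Against all other cells, leaving out embryo F4690_E3 gave 33 calls and leaving out F0589_E1 gave 38.

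What sets these cells apart from their neighbours at the ventricle was asked with embryos of both genotypes together, each compared with itself. Ependymal-type cells (*Foxj1* with any of *Tmem212*, *Ccdc153*, *Dynlrb2* or *Rsph1*, and no *Rax*, *Cga* or *Tshb*) numbered 360. Astrocyte-lineage cells (*Slc1a3* with any of *Aldh1l1*, *Aqp4*, *Gja1* or *Agt*, and no *Rax*, *Foxj1*, *Cga* or *Tshb*) numbered 807. Both comparison sets held cells of other types, mostly from mutants. At least 3 markers of a vascular, meningeal or microglial list were found in 53 ependymal-type and 255 astrocyte-lineage cells. By genotype these were 3 of 111 control and 50 of 249 mutant ependymal-type cells, and 48 of 268 and 207 of 539 astrocyte-lineage cells. At least 3 choroid plexus markers were found in 35 and 3 cells (2 control and 33 mutant, 1 and 2). Results are therefore given with and without such cells, a choice made after the data were seen. The genes of any of the selections were not tested. Summed list levels by genotype are from the full sets, and the part of such cells in them was not tested.

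Against ependymal-type cells, 1418 of 12261 genes (11.6%) differed, 180 higher (1.47%) and 1238 lower (10.1%) in the *Rax*-selected cells. Scaling by total UMIs alone gave 420 (3.43%) and 805 (6.57%), 9.99% in all, and leaving out cells of other types gave 237 (2.02%) and 1135 (9.70%) of 11704. With only cells of more radial glia than neuron UMIs in both sets, 104 of 11019 genes were higher and 1172 lower. The 5 named rises were *Dlk1*, an imprinted Notch-related ligand gene, at 2116 ± 1200 CPM against 264 ± 131 (mean ± SD, n = 14 embryos; 2.94 ± 0.18 log2, SE; adjusted p = 7.36e-36), *Cdkn1c* (1301 against 175 CPM), *Col25a1* (291 ± 174 against 28.5 ± 19.7 CPM), the ephrin ligand gene *Efna5* (607 against 138 CPM), and *Scn7a* (157 UMIs against 0). *Dlk1*, *Cdkn1c*, *Col25a1* and *Efna5* were each higher in 14 of 14 embryos. The named falls included *Ak7* (−4.13), *Odf3b* (−4.76) and *Chchd10* (77.2 against 860 CPM), the first 2 of which belong to motile cilia. None of these was higher in any of the 14 embryos. The ependymal-type cells were chosen by *Foxj1* and other ependymal genes, so lower cilium genes follow from that choice.

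Of 21 tanycyte genes that played no part in the selection, 9 were higher than in ependymal-type cells and 2 lower, with a list median of 0.71 against −0.18 for all genes. The risers were *Dio2* (73.5 against 7.13 CPM, 3.04 ± 0.47), *Gpr50* (192 against 41.2 CPM, 2.19 ± 0.30), *Scn7a*, *Col25a1*, *Fgf10*, *Six6* (1.26 ± 0.35), *Vcan* (0.99 ± 0.21), *Thrsp* (1.31 ± 0.46) and *Pdzph1* (1.64 ± 0.42). *Fgf10* (142 against 5.41 CPM, 4.57 ± 0.43) was higher in 8 of 14 embryos, and its level in *Rax*-selected cells averaged 10.6 CPM in controls and 240.2 in mutants. *Igfbp5*, an IGF-binding protein gene, was lower (276 against 1481 CPM, −2.17 ± 0.20), and *Slco1c1*, a thyroid hormone transporter gene, had 0 UMIs against 77. By genotype the medians of the list ran in opposite directions, which was not tested. The summed level of the list (median over the 14 embryos tested, split by genotype, plain CPM) was 5561 in *Rax*-selected against 2686 in ependymal-type cells of controls, but 4654 against 6791 in mutants. The embryos overlapped, at 2037 to 7083 against 2071 to 4094 in controls and 3503 to 6237 against 2273 to 9982 in mutants. Ependymal-type cells of all 9 mutant embryos had the higher medians of *Vim* (3837 against 1906 CPM) and *Igfbp5* (2196 against 269 CPM). *Dio2* had higher medians in the *Rax*-selected cells of both genotypes, at 55.8 against 0 CPM in controls and 72.7 against 9.25 in mutants.

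Of 18 hypothalamic regional genes 8 were higher and 2 lower. For this and the lists that follow, the shares of all genes tested were 1.47% higher and 10.1% lower. The 8 included *Nkx2-1* (1.39 ± 0.22) and *Six3* (1.39 ± 0.18), each higher in 13 of 14 embryos, and *Tbx3*, a T-box factor of the tuberal hypothalamus (2.73 ± 0.31). In the posterior patterning list 8 of 22 genes were lower and none higher, among them *Zic1* (−1.37 ± 0.25). Cycling genes were higher in 5 of 10 (median 0.74) and immediate early genes lower in 10 of 14 (median −0.97). By genotype, the summed hypothalamic and anterior list had medians of 1815 against 775 CPM in controls and 1856 against 760.3 in mutants, and the posterior list 149 against 732 and 482 against 1054. The cycling list had 1730 against 254 in controls and 1074 against 701 in mutants. The immediate early list had 6579 against 6818 in controls and 4572 against 8816 in mutants.

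Against astrocyte-lineage cells, 2024 of 12947 genes (15.6%) differed, 266 higher (2.05%) and 1758 lower (13.6%), and with scaling by total UMIs alone 725 (5.6%) and 951 (7.35%). With only cells of more radial glia than neuron UMIs in both sets, 182 of 11845 genes were higher and 1929 lower. This comparison changed most without cells of other types, to 1050 of 12052 genes (8.71%), 136 higher (1.13%) and 914 lower (7.58%). Of the 5 lowest in the full set, *Igf2*, *Col3a1*, *Col1a2*, *H19* and *Cxcl12* are high in meningeal or vascular cells. In the reduced set *Col1a2* turned from −4.24 to 0.11 and *Cxcl12* from −5.63 to 0.44. The lowest p-values in the reduced set belonged to *Fabp7* (1333 against 10102 CPM, −2.93 ± 0.13), *Sparcl1* (−3.40), *Olig1* (−5.27), *Serpine2* (−3.75) and *Pla2g7* (−5.28), and among the higher genes to *Dlk1* (2138 against 411 CPM, 2.40), *Cdkn1c* (1271 against 354 CPM, 1.77; in the full set its control means were 564 and 599), the Wnt receptor gene *Fzd5* (2.52), the imprinted zinc finger gene *Plagl1* (1.72) and *Gpr50* (2.96).

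The tanycyte list stood apart from the astrocyte lineage as well. In the reduced set 8 of 20 genes were higher and 3 lower (median 0.54 against −0.22 for all genes), and in the full set 11 and 2. *Dio2* (1.99), *Gpr50*, *Scn7a* (3.77), *Col25a1* (2.11), *Fgf10* (2.04; 178 CPM in mutants and 10.5 in controls) and *Six6* (1.71) were higher than in both comparison sets. The summed neuron list (plain CPM, full sets) also had higher medians in *Rax*-selected cells, at 9678 in controls and 9944 in mutants. In ependymal-type cells it was 7661 and 4811, and in astrocyte-lineage cells 6115 and 4804. The part of neuron content in these differences was not tested. The regional genes *Nkx2-1* (1.28), *Six3* (1.45) and *Tbx3* (2.05) were also higher in both, and 9 of 10 astrocyte genes and 4 of 6 oligodendrocyte precursor genes were lower. The astrocyte-lineage cells were chosen by astrocyte genes, so lower astrocyte genes follow from that choice. Immediate early genes were lower in 9 of 14 (median −0.83) with both genotypes together. In the full set their summed level was higher than in astrocyte-lineage cells of controls (median 6579 against 5148 CPM) and lower than in those of mutants (4572 against 8177). The summed tanycyte list had medians of 5561 against 2709 CPM in controls and 4654 against 3956 in mutants.

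**Figure D5:**
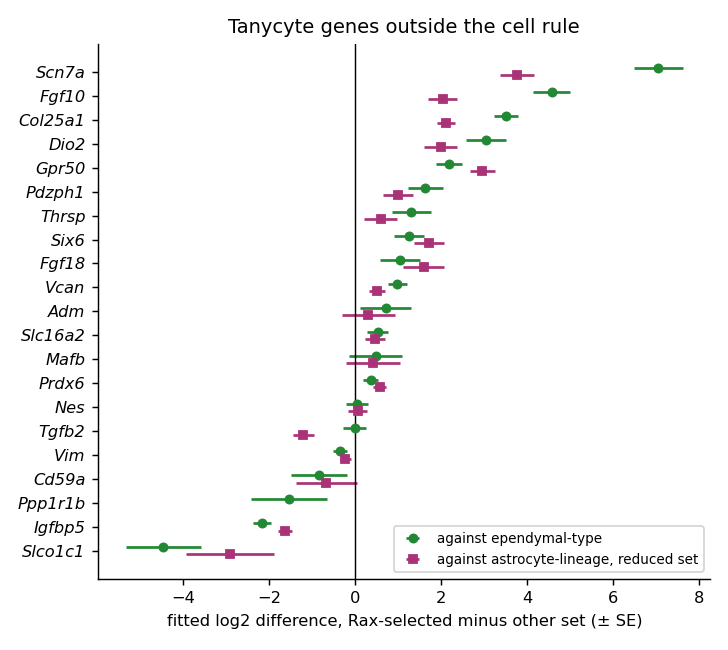
Fitted log2 difference ± SE of tanycyte list genes that were not used in the selection, in *Rax*-selected cells against ependymal-type cells and against astrocyte-lineage cells without cells of other types, over 14 embryos. Values right of 0 are higher in *Rax*-selected cells, as for *Dio2* (3.04 and 1.99); *Scn7a* against ependymal-type cells and *Slco1c1* have 0 UMIs on 1 side, so their fitted values are no bounds.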

How the data were processed

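Single-cell 3′ RNA libraries of 15 embryos were analysed. The deposited values are raw UMI counts per gene and cell, which the authors obtained from Illumina's SureCell software (the submitters' processing notes name STAR 2.5.2b, SAMtools 1.3 and mm10), removing cells with few UMIs or genes. Vascular and immune cells remained in the table and were kept here, as were possible doublets. The table held 16510 genes. Cells were chosen by their UMIs, without clustering. Counts were summed per embryo with at least 3 chosen cells, and genes with at least 15 UMIs in all and 2 in 1 embryo were tested with edgeR 4.0.16 (R 4.3.3): TMM scaling, quasi-likelihood test, Benjamini-Hochberg adjustment at 0.05. Embryo was a block wherever cell sets were compared. The SE of a log2 difference was its size over the square root of F. Gene positions and exon overlaps are from GENCODE vM21 (GRCm38/mm10).

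The genes named were the 7 of the selection, the rises and falls past the threshold whose embryos did not overlap or, after these, had the lowest p, the 5 lowest p in each direction of the other comparisons, and the list members with the lowest p. Others were chosen after their values were seen. The members and lists were chosen with earlier results of these data known. Embryos are separate animals. Counting intervals are exact, at 95%, and cover counting error only; groups at 0 were set to a floor of 3 UMIs over the group. Alternatives were DESeq2 1.42.0, limma 3.58.1 (voom with TREAT at 0.18), other scalings, filters and cell choices, cells thinned to 2000 UMIs, a sex term, litters in place of embryos, and leaving out each embryo. The scripts were tested on simulated data.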

Additional observations from a re-analysis of the deposited data

Results flagged for a closer look

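Among 86 groups of embryos checked, 17 held an embryo far from the others, where chance gives about 1 in 20. In controls, embryo F4520_E2 was the high one for *Cdkn1c* (2176 CPM, TMM-scaled), *Mest* (3311), *Fbn2* (284), *Fgf10* (71.0) and *Galnt7* (23.7), embryo F4650_E2 for *Cdkn1a* (78.5), *Meis2* (157) and *Hddc3* (39.3), and embryo F4690_E3 for *Cox6b2* (22.6). For *Ntrk2*, embryo F4650_E2 was low, at 353 CPM. Of the mutant embryos, F0652_E8 was high for *Acta2* (600 CPM) and *Nid1* (147), F0652_E5 for *Fezf1* (309), F0582_E7 for *Gdf10* (30.3), F502_E9 for *Igf2* (401), F0588_E7 for *Npy* (331) and F0571_E3 for *Sst* (745). For a gene near 0 in a group, such a value can stand for a few UMIs of 1 embryo.

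By edgeR's quasi-likelihood interaction test, the genotype difference differed between *Rax*-selected and all other cells for *Fos* (−1.88, log2), *Nr4a1* (−2.23), *Egr1* (−1.95), *Cyr61* (−1.53), *Fosb* (−1.68), *Fign* (4.73), *Fgf10* (3.36), *Zfhx3* (1.97) and *Tcf7l2* (1.45). *Fezf1* passed too, with a fitted value of 10.92 that is no bound because its control *Rax*-selected sums were 0.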

How the results depend on the processing

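The mean share of *Rax*-selected cells was 1.25 percentage points higher in mutants. It was 0.485 points higher with at least 2 *Rax* UMIs per cell and 3.38 points higher among the 3 glial sets. The mutant to control ratios of these were 3.14, 3.12 and 1.33. When each embryo was left out, the difference was 1.07 to 1.37 points and the ratio 2.81 to 3.54. Against 37 genes called between genotypes, DESeq2 gave 22, limma with TREAT 14, a minimum of 50 UMIs 12, embryos with 6 or more *Rax*-selected cells 11, cells with more radial glia than neuron UMIs 24 and thinned cells 4, and leaving out each embryo 12 to 47. Litters in place of embryos gave 30, with 19 higher and 11 lower. *Acta2* turned to −0.11 in DESeq2 and *Nid1* to 1.53 in cells with more radial glia than neuron UMIs. Over all alternatives, named genes kept direction and call in 702 cases and lost the call in 368. The interaction's 62 calls became 13 with cells holding more radial glia than neuron UMIs, 99 without high doublet scores, 21 against ependymal-type and astrocyte-lineage cells alone, and 33 to 84 when each embryo was left out. Against astrocyte-lineage cells, 2024 calls became 1050 without cells of other types, where *Col1a2* turned to 0.11 and *Cxcl12* to 0.44. The causes were not tested, except that the stricter minimum and thinning test fewer genes. The few cells per embryo limit all of these. No paired analysis was possible because no litter held both genotypes and the replicate numbers pair no embryos across them; cell sets were paired by embryo.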
